A study of Mus musculus with 18 samples.

Results

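The 10 genes of fatty acid handling described here were followed through mouse myoblast differentiation, made up of the 3 peroxisome proliferator-activated receptors (PPARs) *Pparg*, *Ppard* and *Ppara* and 7 genes known as PPAR targets, *Angptl4*, *Lpl*, *Cd36*, *Fabp4*, *Plin2*, *Cpt1a* and *Pdk4*. They are 10 of the 19153 genes in the deposited tables and were taken by symbol. The set was chosen by the D2 values of *Pparg*, *Angptl4* and *Lpl*, which were higher in knockout than in wildtype cells, so the KO/WT D2 values of all members, and every comparison of these 3 genes that holds a D2 group, are given as a description without a p-value.

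PPARs are nuclear receptors that bind fatty acids and their derivatives and, as heterodimers with a retinoid X receptor (RXR), act on genes of lipid uptake, storage and oxidation. PPARγ is best known as the leading factor of fat cell formation, PPARδ as the main form of skeletal muscle and PPARα as the form of the fasted liver. In muscle, their targets serve the use of fatty acids as fuel, among them the lipase that releases fatty acids from triglycerides outside the cell, the mitochondrial entry step of oxidation and a kinase that shuts glucose carbon out of the citric acid cycle.

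RNA was sequenced from immortalized myoblasts of a p53 knockout mouse, a deletion that both genotypes carry. The LAP2α knockout (KO) cells had received a Cas9-GFP plasmid with a guide RNA against LAP2α, an isoform encoded by *Tmpo*, and the wildtype (WT) cells the same plasmid without a guide, and both are bulk-sorted GFP-positive pools rather than clones. Cells were harvested while proliferating in 20% serum (Prol), at confluence (D0) or after 48 h in 5% serum, day 2 of differentiation (D2), with 3 libraries in each of the 6 groups. Levels are in CPM, read counts over the library total at a common scale, adjusted between libraries by the authors. Totals were 26437823 to 41619016 expected counts per library. *Tmpo*, whose transcripts were counted together, was at 228 to 260 CPM in KO Prol and 275 to 315 CPM in WT Prol, and the genotypes overlapped at D0 and D2. Differentiation was seen in 6 myotube genes, which summed to between 1.4 and 20.7 CPM in Prol and D0 libraries and reached 1673 to 3377 CPM in WT D2 and 1000 to 1236 CPM in KO D2. Of the myoblast markers in WT Prol, *Vcam1* (94 ± 12.1 CPM) and *Myf5* (24.5 ± 3.59 CPM) were well detected, while *Myod1*, *Des* and *Cdh15* were at 2.59 ± 1.94, 3.44 ± 2.32 and 1.92 ± 0.959 CPM.

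All 10 genes passed the filter on low counts (more than 5 expected counts in every library of at least 1 group), *Ppara* and *Cd36* in 4 of 6 groups and the others in all 6. Levels were also divided by the kilobases of merged exons of all annotated transcripts, which can exceed the length of the transcript expressed. For *Fabp4* this was 4489 bases, its whole annotated span, and for *Lpl* 10478 bases, so the order of genes is only approximate. On this scale, WT Prol levels were highest for *Pdk4*, at 136 ± 11.8 CPM per kb (SD, n = 3), followed by *Plin2* at 25.1 ± 3.34 CPM per kb. *Cpt1a* at 5.26 ± 1.33, *Pparg* at 5.00 ± 0.403 and *Ppard* at 3.39 ± 0.472 CPM per kb came next, and the first 2 of these did not differ beyond their spread. *Lpl*, *Fabp4* and *Angptl4* lay at 2.66 ± 0.684, 2.56 ± 1.71 and 2.23 ± 0.877 CPM per kb, within each other's spread. *Cd36* at 0.367 ± 0.411 and *Ppara* at 0.0369 ± 0.0101 CPM per kb were the lowest. By WT D2, *Pdk4* (35.3 ± 9.82) and *Plin2* (21.6 ± 1.04 CPM per kb) stood closer together, *Cpt1a* had reached 11.6 ± 3.3 CPM per kb, and *Ppard* (4.10 ± 1.98) stood above *Pparg* (1.41 ± 0.316 CPM per kb).

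The RefSeq windows used here, 250 bases upstream of a transcription start on GRCm38.p6, cover 7 of the 10 genes with 9 windows, and they were searched because PPAR-RXR dimers read repeats of the hexamer AGGTCA. On either strand, AGGTCA was present in 14% of all 32851 windows of this length and in 5 of the 9 windows of the members, namely those of *Plin2*, *Cd36*, *Cpt1a* and 2 of the 3 of *Pparg*. No window of a member held 2 such hexamers in a row spaced by 1 base, a layout present in 0.0335% of all windows. Printed here are the stretches outside annotated exons for *Cpt1a* and *Pdk4*, which moved in opposite directions at D2, and for the one of the 3 *Pparg* starts that lies farthest downstream. Capitals mark the hexamer, here as its reverse complement TGACCT.
*Cpt1a* (chr19:3323051-3323284, plus strand): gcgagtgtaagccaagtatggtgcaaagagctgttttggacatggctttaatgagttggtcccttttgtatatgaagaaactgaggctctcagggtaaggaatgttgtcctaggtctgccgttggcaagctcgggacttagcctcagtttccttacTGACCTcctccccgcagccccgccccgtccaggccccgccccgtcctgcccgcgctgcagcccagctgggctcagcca
*Pdk4* (chr6:5496310-5496528, minus strand): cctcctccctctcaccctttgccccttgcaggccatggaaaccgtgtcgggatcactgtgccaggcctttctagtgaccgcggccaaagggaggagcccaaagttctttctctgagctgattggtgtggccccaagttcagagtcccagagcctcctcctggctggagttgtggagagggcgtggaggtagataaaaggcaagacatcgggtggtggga
*Pparg* (chr6:115421816-115422065, plus strand): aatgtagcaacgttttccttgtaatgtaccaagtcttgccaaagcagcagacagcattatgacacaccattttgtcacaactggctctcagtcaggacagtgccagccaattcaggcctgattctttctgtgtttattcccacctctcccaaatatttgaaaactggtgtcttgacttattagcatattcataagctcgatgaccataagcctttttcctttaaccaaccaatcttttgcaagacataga
The *Cpt1a* hexamer began 94 bases upstream of the start, and the *Pdk4* window and this *Pparg* window held none. A match is a description of letters and not a measured binding site, and RNA values here count all transcripts of a gene together.

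*Pparg*, the receptor gene that leads fat cell formation (ENSMUSG00000000440, chr6:115360951-115490399, plus strand), was lower at D2 than in proliferating cells in both genotypes. WT Prol libraries held 16, 14.6 and 13.7 CPM and WT D2 libraries 5.07, 3.21 and 4.23 CPM. In KO, the values were 28.7, 20.7 and 12.6 CPM in Prol and 11.4, 6.78 and 5.09 CPM in D2. No D2 library reached the lowest Prol library of its genotype. The D2/Prol log2 fold change was -1.85 ± 0.36 (SE, n = 3 per group) in WT, a 3.6-fold lower level, and -1.42 ± 0.36 in KO, and against D0 it was -1.42 ± 0.36 and -1.10 ± 0.36. At D0 the WT libraries, at 12.7, 8.59 and 12.1 CPM, were already all below the Prol libraries, yet this step was not called (log2 fold change -0.43 ± 0.36, adjusted p = 1).

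*Ppard* (ENSMUSG00000002250, chr17:28232700-28301474, plus strand) showed no change that passed the test in any comparison. Its libraries ranged from 22.7 to 29.5 CPM in Prol of both genotypes and from 20.8 to 47.9 CPM at D2. The D2/Prol log2 fold change was 0.18 ± 0.37 in WT and 0.18 ± 0.37 in KO (adjusted p = 0.762 and 0.758). Replicate 1 stood above replicates 2 and 3 in every group, by the widest margin at WT D2, with 47.9 against 20.8 and 23.8 CPM. Leaving out a single replicate 1 library at D2 turned the sign of the change in either genotype.

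*Ppara* (ENSMUSG00000022383, chr15:85734983-85802819, plus strand) was scarce but rose at D2 in WT cells. Its levels were 0.174, 0.0988 and 0.152 CPM in WT Prol, 0.592, 0.361 and 0.215 CPM in WT D0, and 1.03, 0.806 and 0.83 CPM in WT D2. These rest on 2 to 6 expected counts per library in WT Prol and 29 to 34 in WT D2. The 3 WT groups did not overlap. The rise was 6.41-fold in D2/Prol WT (log2 fold change 2.68 ± 0.44, adjusted p = 0.000263) and 2.46-fold in D2/D0 WT (1.30 ± 0.44, adjusted p = 0.0415). With a pseudocount of 1 CPM the D2/Prol value was 0.724. The first call, by adjusted p, held in every alternative fit (between 0.000148 and 0.00482), although these levels lie below the 10 CPM that the study asked of a changed gene, while the second was lost when any of 5 of the 6 libraries was left out (adjusted p up to 0.201). In KO the Prol libraries started higher, at 0.435, 0.487 and 0.283 CPM, and the D2 libraries held 0.507, 0.792 and 1.19 CPM, so that the D2/Prol change of 1.00 ± 0.44 was not called (adjusted p = 0.1). The difference between the genotypes in this change, -1.68 ± 0.63 on the log2 scale, was not called either (adjusted p = 1). For this interaction 0 of the 7 members tested were called with limma, beside 0% of all genes, and 1, *Ppara*, at an unadjusted p under 0.05, beside 0.945%.

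Of the 7 members whose D2 values did not choose the set, 2 were called in D2/Prol WT, *Ppara* higher and *Pdk4* lower, where 30.7% of all 17672 genes tested were called. In D2/Prol KO 3 were called, *Cd36* and *Cpt1a* higher and *Pdk4* lower, beside 32.3% of all genes. D2/D0 gave 3 calls in WT (*Ppara*, *Cpt1a*, *Pdk4*) and 3 in KO (*Cd36*, *Cpt1a*, *Pdk4*), beside 26% and 28.3%. A call here is a Benjamini-Hochberg adjusted p under 0.05 in limma over all genes tested. Groups did not overlap for 4 of the 7 in D2/Prol WT, 4 in D2/Prol KO, 4 in D2/D0 WT and 3 in D2/D0 KO, beside 43.5%, 47.7%, 33.2% and 36.7% of all genes. These shares stood near or somewhat above those of all genes and, with 7 genes, do not set the members apart. The median log2 fold change over all 10 members was 0.22 in D2/Prol WT and 0.46 in D2/Prol KO, beside -0.01 and 0.02 over all genes. These medians hold the genes whose D2 values chose the set, so they are a description and nothing is read from them.

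**Figure D1:**
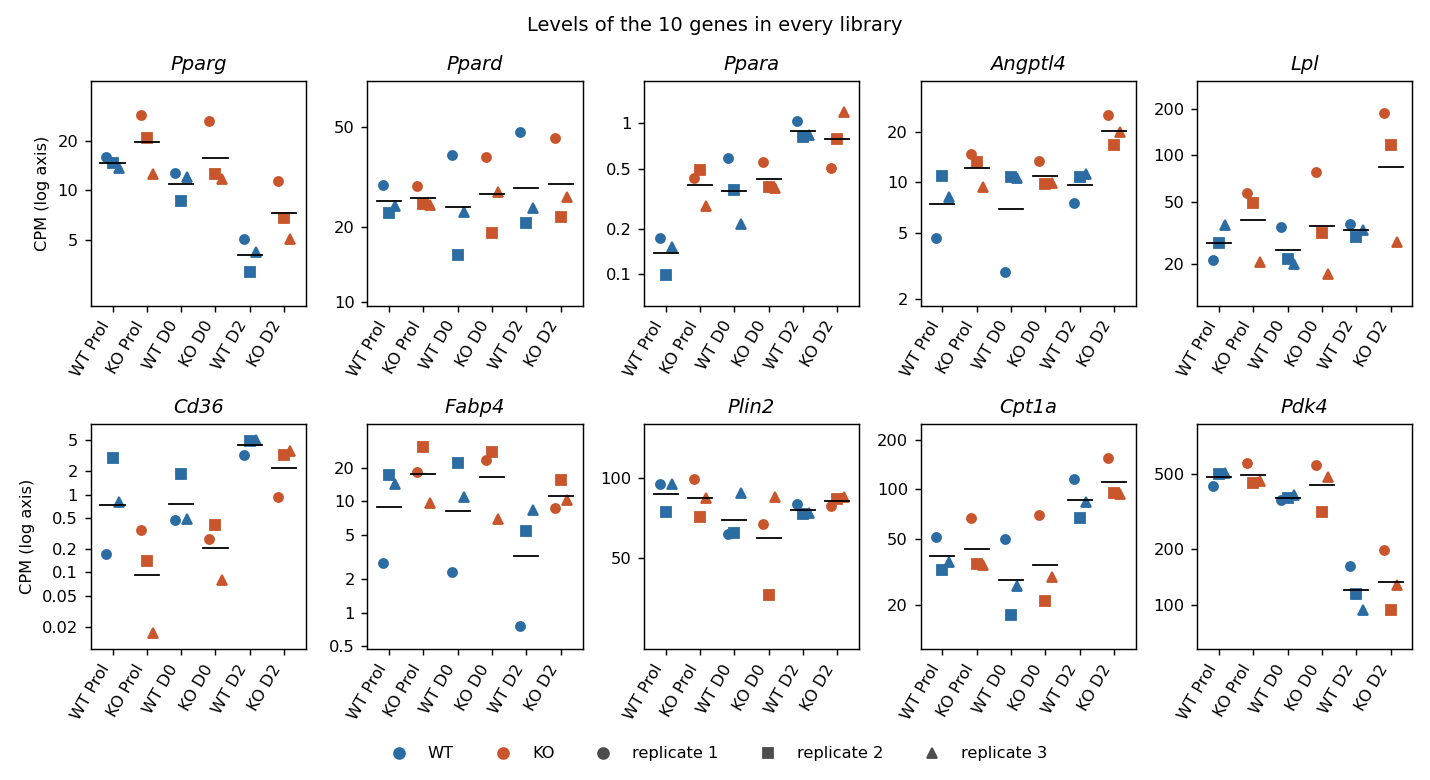
Level of each of the 10 genes in every library, in CPM on a log axis, with WT in blue, KO in orange, a symbol for each replicate number and a bar at the geometric mean of the 3 libraries. *Pdk4* and *Pparg* sit lowest at D2, *Cpt1a* sits highest at D2, and the KO replicate 1 and 2 points of *Lpl* at D2 (188 and 116 CPM) stand far above replicate 3 (27.4 CPM); the *Cd36* point at 0.0166 CPM in KO Prol is a library with a count of 0.

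*Lpl*, encoding lipoprotein lipase (ENSMUSG00000015568, chr8:68880491-68907448, plus strand), kept to a narrow band in WT cells and spread widely in KO cells. WT values were 21.1, 27.1 and 35.4 CPM in Prol, 34.4, 21.4 and 20 CPM in D0 and 35.8, 29.9 and 32.9 CPM in D2. KO replicates 1 and 2 held 56.7 and 49.1 CPM in Prol, 77.5 and 31.6 CPM in D0 and 188 and 116 CPM in D2, whereas replicate 3 held 20.5 CPM in Prol, 17.1 CPM in D0 and 27.4 CPM in D2. Replicate 3 thus lay just under the WT range in every state, and replicates 1 and 2 above it except replicate 2 at D0, which lay inside. The D2/Prol log2 fold change was 0.27 ± 0.61 in WT and 1.13 ± 0.61 in KO. The difference between the genotypes in this change, 0.86 ± 0.86, is given without a test. All 3 KO replicates were higher at D2 than the same-numbered Prol library.

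*Angptl4*, encoding a secreted inhibitor of lipoprotein lipase (ENSMUSG00000002289, chr17:33773750-33781830, minus strand), was highest in the 3 KO D2 libraries. They held 25.2, 16.8 and 20 CPM, while the other 15 libraries ranged from 2.93 to 14.7 CPM. WT D2 libraries held 7.51, 10.8 and 11.2 CPM and KO Prol libraries 14.7, 13.3 and 9.34 CPM. From Prol to D2 the log2 fold change was 0.74 ± 0.42 in KO and 0.38 ± 0.42 in WT. The difference between the genotypes in this change, 0.37 ± 0.60, is given without a test. The groups did not overlap in KO, as for 47.7% of all genes, and overlapped in WT. WT replicate 1 was the lowest WT library in each state, at 4.66, 2.93 and 7.51 CPM.

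*Cd36*, encoding a fatty acid translocase of the plasma membrane (ENSMUSG00000002944, chr5:17781690-17888801, minus strand), was low before differentiation, near the counting limit in KO, and higher at D2. WT Prol libraries held 0.174, 2.98 and 0.793 CPM and WT D2 libraries 3.26, 4.82 and 4.99 CPM. KO Prol libraries held 0.345, 0.141 and 0.0166 CPM, from 11, 4 and 0 expected counts, and KO D2 libraries 0.932, 3.2 and 3.63 CPM. The D2 libraries were all above the Prol libraries in each genotype. The change was called in KO (log2 fold change 4.57 ± 1.09, adjusted p = 0.00434) and missed the threshold in WT (2.52 ± 1.09, adjusted p = 0.0926). The size of the KO change depends on the library with a count of 0 and on the added fraction of a count; without that library the log2 fold change was 3.324. In WT the change was called with voom weights (adjusted p = 0.0246) and without replicate 2 of Prol (adjusted p = 0.0299), where *Cd36* was highest. D2/D0 was called in KO (3.42 ± 1.09, adjusted p = 0.0277) and lost without replicate 3 of D0 or without replicate 2 or 3 of D2 (adjusted p of 0.134, 0.0886 and 0.0907).

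*Fabp4*, encoding a cytosolic fatty acid carrier of fat cells and macrophages (ENSMUSG00000062515, chr3:10204088-10208576, minus strand), varied more between libraries than between states. WT replicate 1 held 2.82, 2.32 and 0.759 CPM in Prol, D0 and D2, far below replicate 2 at 17.4, 22.3 and 5.42 CPM. All 3 WT replicates were lower at D2 than at Prol, but the change of -1.44 ± 0.95 on the log2 scale was not called (adjusted p = 0.279), nor was that of -0.65 ± 0.95 in KO (adjusted p = 0.654). *Plin2*, encoding a coat protein of lipid droplets (ENSMUSG00000028494, chr4:86648386-86670060, minus strand), stayed between 36.6 and 99.5 CPM across all 18 libraries. Its log2 fold change was -0.21 ± 0.25 in D2/Prol WT and -0.03 ± 0.25 in D2/Prol KO (adjusted p = 0.586 and 0.941), and the KO value was positive (0.099) when libraries were scaled by their totals alone. The lowest *Plin2* library, at 36.6 CPM, was KO D0 replicate 2, and the other 17 held at least 61.9 CPM.

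*Cpt1a*, encoding the carnitine palmitoyltransferase that controls entry of long-chain fatty acids into mitochondria (ENSMUSG00000024900, chr19:3322334-3385733, plus strand), was higher at D2. WT libraries held 51.7, 32.6 and 36.3 CPM in Prol, 50.1, 17.2 and 26 CPM in D0 and 116, 66.7 and 83.2 CPM in D2. KO libraries held 67, 35.1 and 34.7 CPM in Prol, 69.7, 20.9 and 29.3 CPM in D0 and 155, 95.2 and 93.4 CPM in D2. No D2 library of either genotype overlapped with the Prol or D0 libraries of that genotype. The rise from D0 was called in both genotypes, at 3.06-fold in WT (log2 fold change 1.61 ± 0.44, adjusted p = 0.0131) and 3.18-fold in KO (1.67 ± 0.44, adjusted p = 0.00986). From Prol it was called in KO (1.36 ± 0.44, adjusted p = 0.027) and not in WT (1.13 ± 0.44, adjusted p = 0.0634), values that differ by less than their SE. The KO call was lost without replicate 2 or 3 of Prol or replicate 1 of D2 (adjusted p of 0.0901, 0.101 and 0.0955), and D2/D0 WT was lost without replicate 2 of D0 (adjusted p = 0.0667). In D2/Prol WT, *Cpt1a* was called with library totals alone (adjusted p = 0.0265) and with only the groups compared (adjusted p = 0.019). In every group, replicate 1 was the highest library.

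*Pdk4*, encoding a kinase that switches off pyruvate dehydrogenase (ENSMUSG00000019577, chr6:5483351-5496309, minus strand), fell by D2 in both genotypes. WT libraries held 431, 500 and 506 CPM in Prol, 363, 370 and 384 CPM in D0 and 162, 115 and 95 CPM in D2. The KO libraries held 570, 448 and 458 CPM in Prol, 554, 313 and 477 CPM in D0 and 196, 94.1 and 128 CPM in D2. Every D2 library lay below every Prol and D0 library. The D2/Prol fall was 3.95-fold in WT (log2 fold change -1.98 ± 0.27, adjusted p = 4.73e-05) and 3.67-fold in KO (-1.88 ± 0.27, adjusted p = 7.97e-05), and against D0 it was 3.07-fold and 3.27-fold (adjusted p = 0.000368 and 0.000221). These 4 calls were kept in every alternative run. The direction was opposite to that of *Cpt1a*.

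**Figure D2:**
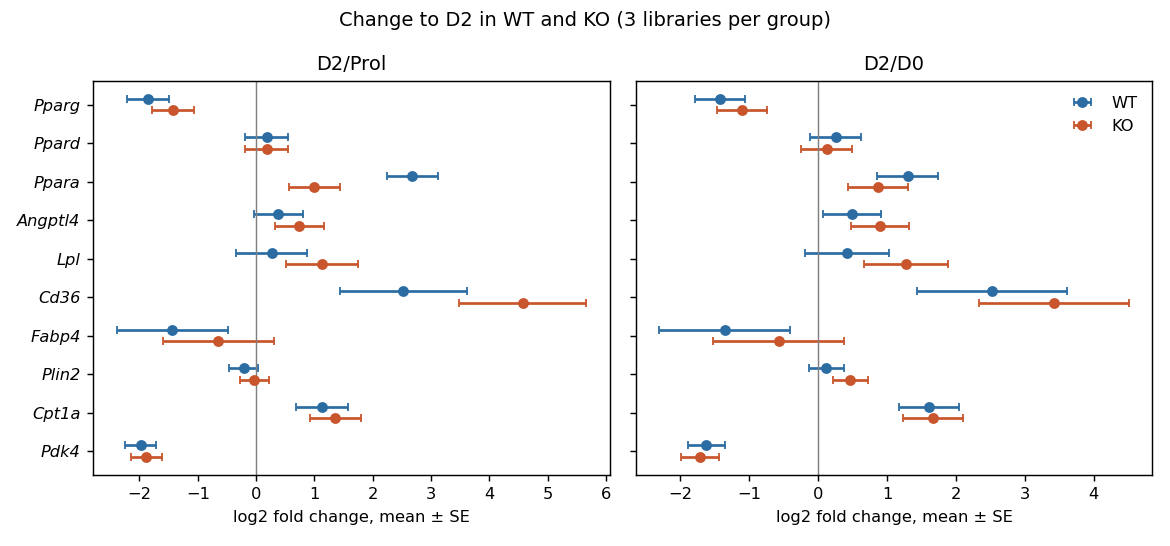
Log2 fold change at D2 against Prol (left) and against D0 (right) for the 10 genes, WT in blue and KO in orange, with bars for the SE from the fit (3 libraries per group). *Pdk4* and *Pparg* lie left of 0 and *Cpt1a*, *Ppara* and *Cd36* right of 0 in both genotypes, and the widest bars belong to *Cd36* and *Fabp4*.

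Between Prol and D0, before serum was lowered, no member was called in WT or KO with limma, where 0.00566% and 0% of all genes were called, and none was with voom weights. At an unadjusted p under 0.05, 1 member passed in WT, *Ppara* at 2.6-fold higher, and 0 in KO, beside 2.17% and 1.12% of all genes. In WT 3 of the 10 members did not overlap between Prol and D0 (*Ppara*, *Pparg* and *Pdk4*), beside 5.92% of all genes, and 0 in KO, beside 4.35%. Log2 fold changes of the members ran from -0.48 (*Cpt1a*) to 1.38 (*Ppara*) in WT and from -0.50 (*Plin2*) to 1.15 (*Cd36*) in KO.

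In the comparison of genotypes, 0 of the 10 members were called in KO/WT Prol or KO/WT D0 (limma, adjusted p = 1 for each member in both), where 0.00566% and 0% of all genes were called. At an unadjusted p under 0.05, 2 members passed in Prol, beside 1.11% of all genes, and 0 in D0, beside 1.47%. With voom weights, or with the replicate block, the counts of called members were also 0. The 2 in Prol were *Ppara*, 2.84-fold higher in KO without overlap, and *Cd36*, with a log2 fold change of -3.00 ± 1.09 that ran from -4.987 to -1.707 when replicates were left out. *Cd36* was lower in KO in 8 of the 9 same-numbered library pairs, all but replicate 1 in Prol, as were 4.07% of all genes. Groups did not overlap for 1 member in Prol (*Ppara*) and 1 in D0 (*Cd36*, lower in KO), beside 4.41% and 3.02% of all genes. The members' median KO/WT log2 fold change was 0.27 in Prol, 0.28 in D0 and 0.25 in D2, beside 0.00, 0.01 and -0.01 over all genes. Each median holds *Pparg*, *Angptl4* and *Lpl*, picked for higher KO levels at D2, with KO/WT Prol values of 0.41, 0.71 and 0.50. All 3 medians are thus descriptions, and nothing is read from them.

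At D2, the comparison from which the set was chosen, *Pparg* was 1.79-fold higher in KO (log2 fold change 0.84 ± 0.36), *Angptl4* 2.11-fold (1.07 ± 0.42) and *Lpl* 2.57-fold (1.36 ± 0.61). *Fabp4* was 3.42-fold higher (1.78 ± 0.95) and *Cd36* 1.94-fold lower (-0.95 ± 1.09), and the others lay between -0.17 (*Ppara*) and 0.36 (*Cpt1a*). All KO libraries of *Pparg*, *Angptl4* and *Fabp4* were above all WT libraries, as for 2.35% of all genes, while for *Lpl* replicate 3 of KO (27.4 CPM) was below every WT library. No reading is drawn from this count, since this contrast chose the genes.

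The KO to WT ratios of *Lpl*, *Pparg* and *Fabp4* were above 1 in replicates 1 and 2 and lower in replicate 3. The KO to WT ratio of *Lpl* at D2 was 5.23 in replicate 1, 3.88 in replicate 2 and 0.833 in replicate 3, and in Prol, which the rule did not use, it was 2.68, 1.81 and 0.579. For *Pparg* the D2 ratios were 2.24, 2.11 and 1.2 and the Prol ratios 1.79, 1.41 and 0.92, and for *Fabp4* they were 11.5, 2.87 and 1.22 at D2 and 6.45, 1.77 and 0.677 in Prol. The replicate order of the ratios of these 3 genes was thus the same at D2 and in Prol. At D2 the *Fabp4* libraries held 8.72, 15.6 and 10.3 CPM in KO and 0.759, 5.42 and 8.45 CPM in WT. Its largest ratio thus lay in replicate 1, the lowest library of both genotypes, unlike *Lpl*, whose KO replicate 1 was the highest. For *Angptl4* the ratio was largest in replicate 1 in every state, with 3.15, 1.22 and 1.14 in Prol, 4.59, 0.919 and 0.938 in D0 and 3.36, 1.56 and 1.78 in D2. Without replicate 3, the KO/WT D2 log2 fold change of *Lpl* was 2.172, and without the KO D2 library of replicate 1 it was 0.782. For *Pparg* the corresponding values were 1.121 and 0.519. *Cpt1a* was higher in KO in 8 of 9 same-numbered pairs, although by ratios of 0.956 to 1.43 only, and 4.97% of all genes were higher in KO in at least 8 of the 9 pairs.

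**Figure D3:**
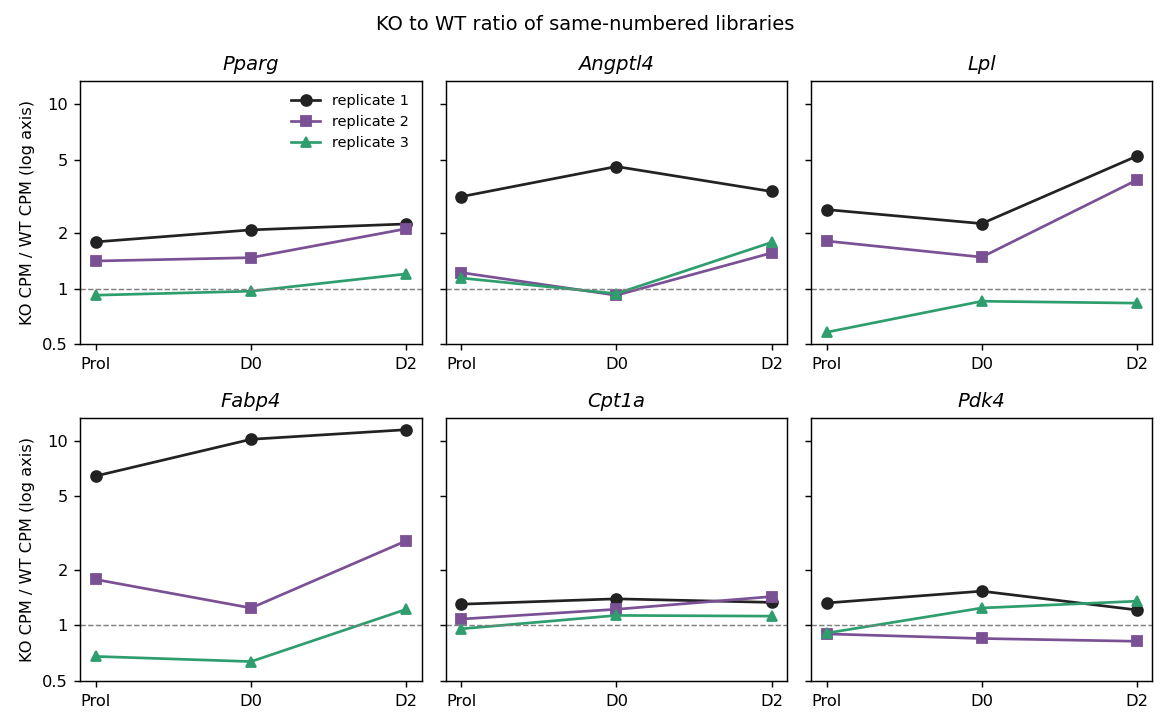
Ratio of KO CPM to WT CPM within each replicate number in Prol, D0 and D2, on a log axis, for 6 of the 10 genes, with a line per replicate and a dashed line at equal levels. The replicate 3 line of *Lpl* stays below 1 (0.579, 0.853 and 0.833) while the lines of replicates 1 and 2 stay above it, and the *Cpt1a* and *Pdk4* lines keep within 0.818 to 1.53.

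Marker levels that moved with these values are given here, and their part in the results was not tested. The 6 myotube genes summed to 3377, 1816 and 1673 CPM in WT D2 and 1213, 1236 and 1000 CPM in KO D2, without overlap, and *Myh3*, an embryonic myosin heavy chain gene, was at 1374 ± 604 and 691 ± 51.8 CPM. In these bulk libraries, fewer myotubes and less RNA per myotube cannot be told apart. *Pdgfra*, a marker of fibro-adipogenic progenitors, held 241, 241 and 81.6 CPM in KO D2 and 133, 66.9 and 102 CPM in WT D2, so it was also low in the KO replicate in which *Lpl* was low. The 6 progenitor and fibroblast markers, all of them found, summed to 12522, 1950 and 2517 CPM in WT D2 and 13805, 4081 and 3342 CPM in KO D2, with *Col1a1* giving most of it. In Prol this sum was 440 to 2255 CPM in WT and 541 to 1578 CPM in KO. Between WT Prol and WT D2 *Pdgfra* went from a range of 19.9 to 35.4 CPM to one of 66.9 to 133 CPM and *Dcn* from 0.213 ± 0.177 to 47.8 ± 16.9 CPM. *Ly6a*, *Cd34* and *Dpp4* overlapped between these groups, with WT D2 levels of 10.3 ± 1.55, 33.5 ± 15.4 and 0.117 ± 0.0549 CPM. In KO D2 these were at 13.4 ± 3.48, 28.8 ± 5.75 and 0.261 ± 0.25 CPM, and *Dcn* was at 49.6 ± 10.3 CPM. The markers of this list thus did not all move with *Pdgfra*. Replicate 1, highest in the sum of the 6 markers, was also highest in *Cpt1a* and *Ppard* in both genotypes and lowest in *Fabp4* and *Angptl4* in WT.

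Of 8 fat cell markers 5 were found, and their sum ranged from 6.09 to 18.8 CPM over all libraries, most of it *Cebpa*. At D2 the sum was 8.59 to 10.9 CPM in KO and 9.82 to 11.4 CPM in WT. *Plin1*, the droplet coat gene of mature fat cells, was at 0.514 ± 0.191 CPM in KO D2 and 0.705 ± 0.271 CPM in WT D2. *Plin4*, of the same gene family but outside this marker list, was at 40.1 ± 22.4 CPM in KO D2 and 15 ± 7.27 CPM in WT D2, with overlap. The 3 of 6 macrophage markers found summed to 5.92 to 11.7 CPM and the 3 of 5 endothelial markers to 1.12 to 2.46 CPM. The 5 of 6 myoblast markers found summed to 110 to 148 CPM in Prol, 429 to 734 CPM in WT D2 and 336 to 402 CPM in KO D2.

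Among 56 other genes of the pathway, 48 were tested. In D2/Prol 12 rose and 2 fell in WT while 16 rose and 2 fell in KO. Of all genes, 30.7% and 32.3% were called in either direction. The rises in both genotypes hold *Mgll*, which passed the filter on low counts through D2 libraries alone. *Fabp3*, the fatty acid carrier of heart and skeletal muscle, had the largest rise, from 0.303 ± 0.105 to 9.10 ± 1.08 CPM in WT (log2 fold change 4.97 ± 0.35, adjusted p = 1.9e-07) and from 0.382 ± 0.0727 to 8.14 ± 2.35 CPM in KO. *Fabp5*, the epidermal form of the same family, fell from 250 ± 41.6 to 68.4 ± 21.5 CPM in WT (-1.91 ± 0.27, adjusted p = 6.73e-05). *Vldlr*, a receptor of triglyceride-rich lipoproteins, rose 2.13-fold in WT (adjusted p = 0.0145). These are the 3 of the 7 uptake and binding genes called in WT, and *Slc27a1*, a fatty acid transporter, was called in addition in KO (1.11 ± 0.40, adjusted p = 0.0428).

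The pyruvate dehydrogenase kinases did not move as one. *Pdk2* rose from 2.58 ± 0.492 to 10.9 ± 3.23 CPM in WT (log2 fold change 2.05 ± 0.38, adjusted p = 0.000766) while *Pdk1* fell from 67 ± 13.6 to 33.4 ± 2.51 CPM (-0.99 ± 0.19, adjusted p = 0.000867). *Pdp1*, encoding a phosphatase that reverses their action, rose 3.29-fold (1.72 ± 0.17, adjusted p = 2.91e-06). In KO the same 3 were called in the same direction, together with *Pdp2*, at 1.77-fold (adjusted p = 0.0131). Of 5 genes in this list, 2 thus rose and 1 fell in WT and 3 rose and 1 fell in KO, beside 30.7% and 32.3% called among all genes.

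Of 14 oxidation genes tested, 3 rose in WT and 4 in KO, and none fell, beside 30.7% and 32.3% called among all genes. With 14 genes, these shares do not set the list apart. *Acot2*, a mitochondrial acyl-CoA thioesterase, rose 2.54-fold in WT (log2 fold change 1.34 ± 0.39, adjusted p = 0.016), and *Slc25a20*, the carnitine-acylcarnitine carrier, 1.57-fold (adjusted p = 0.019). *Cpt1b*, the muscle form of the enzyme encoded by *Cpt1a*, was at 2.91 ± 1.19 CPM in WT Prol and 4.46 ± 3.10 CPM in WT D2 (adjusted p = 0.849). Of 11 storage and lipolysis genes tested, 3 rose in WT and 4 in KO, beside 30.7% and 32.3% of all genes, which does not set this list apart either. Those called in WT were *Plin3*, 2.07-fold (adjusted p = 0.00182), and *Abhd5*, a lipase activator, 1.54-fold (adjusted p = 0.00594). *Mgll*, a monoglyceride lipase, was also called, at 0.666 ± 0.344 CPM in WT D2 and 0.0345 ± 0.0281 CPM in WT Prol. The Prol and D0 means of *Mgll* lay below the CPM of 3 expected counts (0.0651 to 0.119 over the libraries). *Mgll* thus passed the filter on low counts through D2 libraries alone. Its rise, counted among the 3 in WT and 4 in KO, is therefore a description. *Plin4* was called in addition in KO (2.07 ± 0.74, adjusted p = 0.0426). Of 9 receptor partners and coregulators, *Ncoa1*, a steroid receptor coactivator, rose in both genotypes (4.29-fold in WT, adjusted p = 0.00133), and *Lmf1*, a lipase maturation factor, was the 1 of 2 lipase partners called (1.56-fold in WT, adjusted p = 0.0127). The RXR genes *Rxra* and *Rxrb* had D2/Prol log2 fold changes of -0.23 ± 0.32 and -0.08 ± 0.14 in WT (adjusted p = 0.636 and 0.732). In KO/WT Prol, D0 and D2, 0 of the 48 genes were called with limma, beside 0.00566%, 0% and 0% of all genes. At an unadjusted p under 0.05, 0 passed in Prol or D0, beside 1.11% and 1.47% of all genes. With shares this low among all genes, these counts do not set the 48 genes apart.

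**Figure D4:**
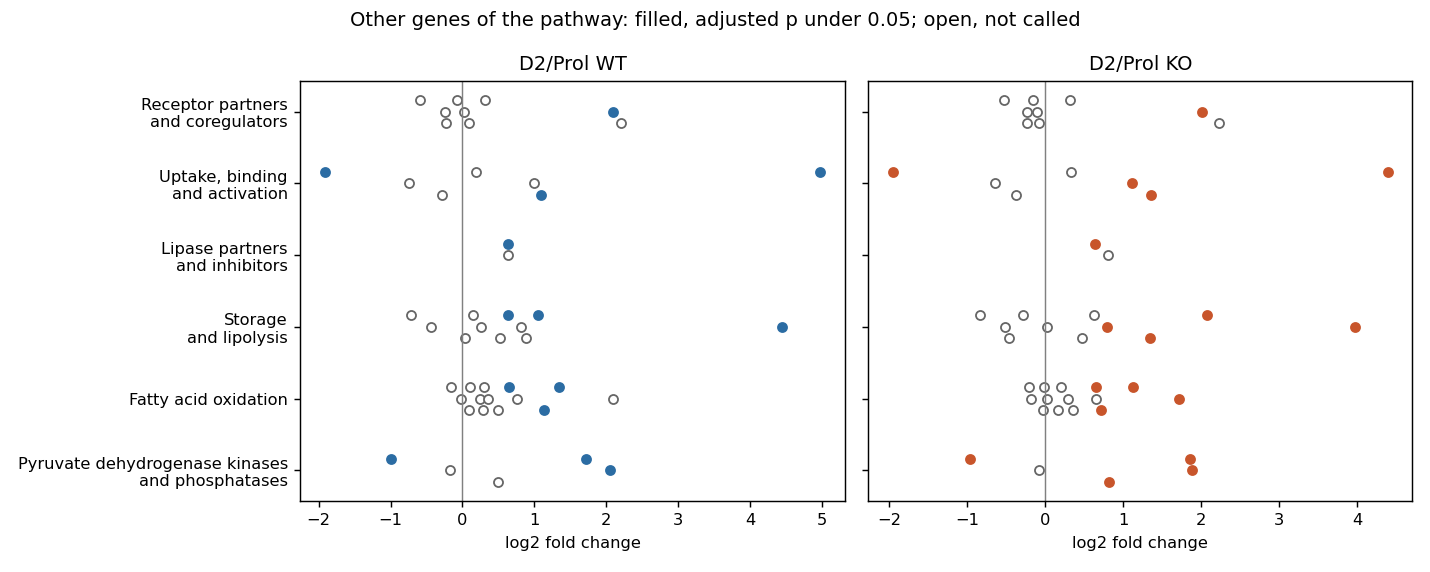
D2/Prol log2 fold change of the 48 tested genes in 6 lists of the wider pathway, in WT (left) and KO (right), 1 point per gene, filled where the adjusted p was under 0.05. The farthest points to the right are *Fabp3* (4.97 in WT and 4.39 in KO) and *Mgll*, and the farthest to the left is *Fabp5* (-1.91 and -1.95). The Prol means of *Mgll* lay below the CPM of 3 expected counts.

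Genes with the pattern most like that of a member were found by Pearson's correlation of log2 CPM over the 18 libraries, among 13290 genes with a mean of at least 1 CPM. The libraries share states and replicates, so the values are descriptions. Nearest to *Pdk4* were *Bend4*, *Asb4* and *Snrnp40* (r of 0.986, 0.984 and 0.983). Nearest to *Pparg* were *Ildr2*, *Trabd2b* and *Smad9* (0.940, 0.937 and 0.935). The best matches were looser for *Angptl4*, with *Dpep1*, *Ppfibp2* and *Aldh1a2* (0.894, 0.853 and 0.85), and for *Lpl*, with *Adam23*, *Rtn4rl1* and *Agt* (0.858, 0.852 and 0.832). No member was among the 3 nearest genes of another of these 4.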

How the data were processed

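Per the labels and the study's methods, poly(A) RNA was sequenced with strand-specific single-end reads. After trimming with cutadapt, the authors aligned to the GRCm38 transcriptome by NextGenMap, took expected counts from RSEM and scaled them with TMM factors from edgeR. The deposited values are CPM, the expected count plus 0.5 over the scaled library total, and expected counts were recovered from them. Groups and replicate numbers came from the sample labels, which do not say whether replicates were separate cultures, so p-values measure the spread between these libraries.

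A gene was kept if some group had over 5 expected counts in each of its 3 libraries, and the resulting 17672 genes were fitted with limma 3.58.1 in R 4.3.3 (lmFit, eBayes with trend) on log2 of the deposited CPM, as a single factor of 6 groups over all 18 libraries. The sequencing lane, a block in the study's fit, is not in the labels used here. Adjusted p-values are Benjamini-Hochberg values over all genes tested. The scripts were tested on simulated data. After subtraction of group means, libraries sharing a replicate number correlated above 0.1 in 40 of 45 pairs, and in every pair of 7 of the 9 comparisons, all but D2/Prol WT and D2/D0 WT. These were taken as paired on the data alone, and the replicate block is given as an alternative. SEs, p-values and shares of all genes are from the fit without this block, except where the block is named. That fit leaves differences between replicate numbers in the spread, so a lack of calls in it does not show equal levels.

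The members, gene lists and tests were chosen with earlier results of these data known. Named genes are all members, at most 2 rises and 2 falls per pathway list by size among those called in D2/Prol WT (lists with 5 or fewer calls in full, save 1 gene not reported here), and the 3 genes most like *Pparg*, *Angptl4*, *Lpl* and *Pdk4*. *Plin1*, *Rxra*, *Rxrb* and *Cpt1b* were named in addition after their values were seen, and the D2 levels of *Plin4* were added likewise. Alternatives were the replicate block, voom weights, scaling by median ratios or by totals alone, no low-count filter, a pseudocount of 1 CPM, a fit of only the groups compared, and leaving libraries out. Gene positions are from GENCODE M21 and upstream windows from RefSeq. Python 3.11.15 with matplotlib 3.10.9 drew the figures.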

Additional observations from a re-analysis of the deposited data

How the results depend on the processing

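Of 1000 alternative values for single members, 40 changed sign (30 of tested values and 10 of values given without a test), 13 lost a call and 13 gained one. Scaling by library totals alone moved the median of all genes by 0.162 in D2/Prol WT and 0.131 in D2/Prol KO on the log2 scale, and the *Plin2* D2/Prol KO value became 0.099. The replicate block raised the members called in D2/Prol WT from 2 to 4, adding *Cd36* (adjusted p = 0.0384) and *Cpt1a* (adjusted p = 0.000144), in a comparison where the numbers were not shown to pair the libraries. It changed no other call among members except *Cd36* in D2/D0 WT (adjusted p = 0.0424). Leaving out single libraries gave 1 to 3 members called in D2/D0 WT, the lowest without WT D0 replicate 2, where *Pdk4* alone was called. *Ppara* in D2/D0 WT was also lost with only the groups compared (adjusted p = 0.136), and *Cpt1a* in D2/Prol WT was gained with library totals alone and with only the groups compared (0.0265 and 0.019). The causes were not tested.

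The other 39 sign changes came from leaving out libraries, with these ranges of the log2 fold change. *Ppard* ranged from -0.188 to 0.415 in D2/Prol WT, -0.120 to 0.40 in D2/Prol KO, -0.111 to 0.604 in D2/D0 WT and -0.173 to 0.375 in D2/D0 KO, and *Plin2* from -0.153 to 0.088 in D2/Prol KO. In KO/WT Prol the ranges were -0.150 to 0.129 for *Pdk4*, -0.176 to 0.064 for *Plin2*, -0.036 to 0.154 for *Ppard* and -0.174 to 0.335 for *Cpt1a*. In KO/WT D0 they were -0.107 to 1.053 for *Angptl4*, -0.170 to 1.831 for *Fabp4*, -0.078 to 1.013 for *Lpl*, -0.141 to 0.520 for *Ppard*, -0.188 to 0.724 for *Cpt1a*, -0.113 to 0.618 for *Ppara* and -0.489 to 0.117 for *Plin2*. Among values without a test they were -0.135 to 0.797 for *Angptl4* in D2/D0 WT and, in KO/WT D2, -0.257 to 0.416 for *Ppard*, -0.522 to 0.248 for *Ppara* and -0.140 to 0.388 for *Pdk4*. Leaving out all 6 libraries of a replicate number was added after seeing the data. Depth limits *Ppara* and *Cd36*, whose lowest libraries held 2 and 0 expected counts.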
